A study of Homo sapiens with 6 samples.

Results

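The BCL2 family decides whether a cell opens its own mitochondria and dies. Guardian proteins such as MCL1, BCL2 and BCL2L1 (BCL-xL) hold the pore formers BAK1 and BAX in check, while BH3-only proteins such as BCL2L11 (BIM), PMAIP1 (NOXA), BBC3 (PUMA), BMF and BID bind the guardians or act on the pore formers directly. Plasma cells and most myelomas are known for their need of MCL1, and a smaller group, often with a cyclin D1 translocation, for sensitivity to BCL2 inhibition. The 10 genes described here were taken by name from a table of 58735 annotated genes. They were 4 guardians (BCL2, MCL1, BCL2L1 and BCL2A1), 1 pore former (BAK1) and 5 BH3-only genes (BCL2L11, BMF, PMAIP1, BBC3 and BID).

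The 6 RNA-seq libraries came from MM.1S, a human multiple myeloma cell line. There were 3 control libraries, from cells given a non-targeting siRNA (si-NC), and 3 PRMT1 KD libraries, from cells given siRNA against PRMT1, an arginine methyltransferase. Per the study's methods the siRNA was used at 100 nM and the cells were compared 72 h after transfection. All libraries were from this 1 cell line, the KD was transient, and it left part of the PRMT1 mRNA in place.

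The libraries held 14439217 to 16465026 reads on genes, and correlated across genes, on log2(FPKM + 1), at Pearson r of 0.980 to 0.984 within a group and 0.974 to 0.979 between groups. PRMT1, the targeted gene, read 61.7, 62.8 and 58.9 FPKM (fragments per kilobase of gene, scaled to library size) in the controls and 13.3, 14.0 and 12.5 FPKM in the KD libraries, or 21.7% of control (log2 fold change -2.13, limma adjusted p = 2.77e-05). Of 8 plasma cell markers all passed the filter on low values. Only SLAMF7 passed a limma adjusted p of 0.05, and it was lower (log2 fold change -0.65, limma adjusted p = 0.00515). At an unadjusted limma p under 0.05, 5 of the 8 passed, 2 higher and 3 lower, against 19.5% of all genes tested. The groups did not overlap for 5 of the 8, against 25.9% of all genes tested. Of 9 markers of other cells, 2 passed the filter: PAX5 at 0.781 to 1.30 FPKM and the T cell gene CD3E at 32.1 to 39.0 FPKM. MS4A1 and HBB were listed at 0 in every library. The other T cell genes CD3D, CD3G, CD247 and CD2, looked up after CD3E was seen, reached at most 0.845, 3.35, 0.0922 and 0.0369 FPKM.

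Across all genes, 279 of 13585 tested (2.05%) passed a limma adjusted p of 0.05, 145 higher and 134 lower in PRMT1 KD. None of the 9 members tested did. In bulk RNA, fewer cells of a type and less RNA per cell cannot be told apart. At an unadjusted p under 0.05, 3 members passed, against 19.5% of all genes. The same 3 members were those whose groups did not overlap, against 25.9% of all genes. They were BCL2 and BCL2L11, both higher in every KD library than in any control, and BAK1, lower in every KD library than in any control. The limma voom test on reads worked back from the FPKM values called these 3 members, against 6.82% of all genes. The median log2 fold change of the 9 members was 0.018, beside 0.010 over all genes tested. With 3 libraries a group the exact permutation test cannot give a p below 0.1, and it gave 0.1 for each of the 3.

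**Figure D1:**
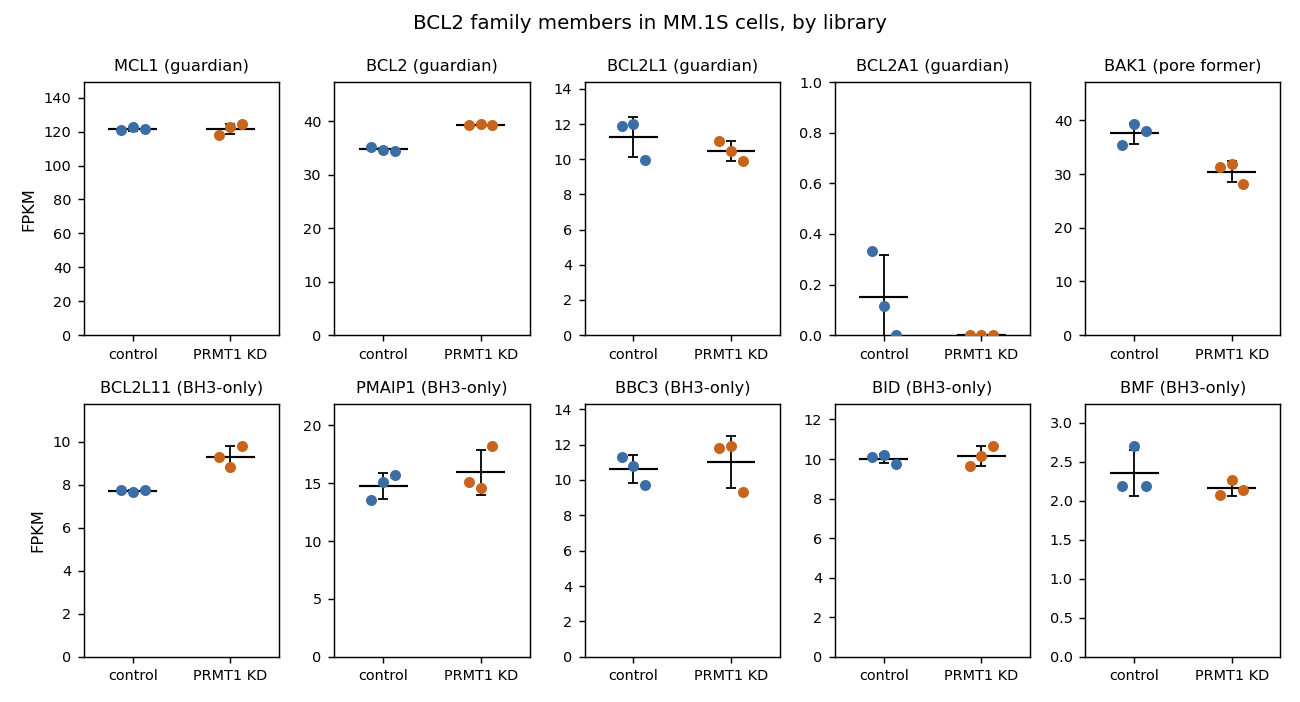
FPKM of the 10 BCL2 family members in the 3 control and the 3 PRMT1 KD libraries, with a separate vertical axis from 0 for each gene. Points are libraries, the long horizontal line is the group mean and the bar is 1 SD. MCL1 sits near 122 FPKM in both groups, and only the panels of BCL2, BAK1 and BCL2L11 show groups that do not overlap.

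Before the values, sequences are shown for BCL2L11 and BAK1, whose groups stood apart, because BCL2L11 is a textbook target of FOXO factors. No stretch is shown for BCL2, whose groups also stood apart. The sequences are RefSeq promoter stretches (GRCh38.p14) outside annotated exons, read 5′ to 3′ on the gene's own strand. Capitals mark the FOXO letters GTAAACA and CCAAT, here found in its reverse form ATTGG.
BCL2L11 chr2:111120664-111120913 (+): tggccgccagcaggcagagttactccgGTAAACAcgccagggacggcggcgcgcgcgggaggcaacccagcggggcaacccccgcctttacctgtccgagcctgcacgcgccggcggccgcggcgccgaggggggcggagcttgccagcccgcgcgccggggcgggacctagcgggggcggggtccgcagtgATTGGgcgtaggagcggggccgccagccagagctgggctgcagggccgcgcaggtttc
BAK1 chr6:33580294-33580526 (-): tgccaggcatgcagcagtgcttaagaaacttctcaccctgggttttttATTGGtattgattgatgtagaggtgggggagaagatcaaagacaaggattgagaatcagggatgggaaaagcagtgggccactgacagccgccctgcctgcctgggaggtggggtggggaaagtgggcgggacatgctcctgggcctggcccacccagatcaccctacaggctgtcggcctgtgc

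The BCL2L11 stretch holds 250 bases at 76.8% GC, and its FOXO letters begin 223 bases before its end. It lies within the span of the GENCODE gene, outside annotated exons. The BAK1 stretch holds 233 bases at 57.1% GC, and its ATTGG begins 185 bases before its end. RefSeq gave windows from 250 bases before to 50 after the start for 9 of the 10 members, all but MCL1, 15 windows in total. On either strand the FOXO letters were in the window of BCL2L11 alone among those 9 members, and in 3.42% of all 35116 windows. CCAAT was found in 4 of the 9 members (34.6% of all windows), the GC box GGGCGG in 6 (45.0%), the TATA box TATAAA in 2 (11.5%), the E-box CACGTG in 2 (7.26%) and the CRE TGACGTCA in 0 (1.85%). A member was counted if any of its windows held the letters, while each percentage is a share of single windows. Members with several windows, such as BID with 5, therefore had more chances to be counted. These are matches of letters only, and a window without them says nothing of a factor's binding.

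MCL1, the guardian that plasma cells depend on, had by far the highest FPKM of the members. The gene (ENSG00000143384, GRCh38 chromosome 1, 150574551 to 150579738, minus strand) read 121, 123 and 121 FPKM in the controls and 118, 122 and 124 FPKM in the KD libraries. The groups overlapped fully. The log2 fold change on log2(FPKM + 1) was -0.0013, with a 95% interval from -0.093 to 0.090, which is 0.938-fold to 1.06-fold (limma adjusted p = 0.990). With 7707 to 8766 reads in every library, MCL1 had the narrowest counting error of the members. These are sums over isoforms, so the long and the short, BH3-only form of MCL1 could not be told apart.

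BCL2, the guardian bound by venetoclax, was the next guardian by FPKM. The gene (ENSG00000171791, chromosome 18, 63123346 to 63320128, minus strand) read 35.1, 34.7 and 34.4 FPKM in the controls and 39.3, 39.4 and 39.4 FPKM in PRMT1 KD. Every KD value lay above every control value. The mean went from 34.7 ± 0.325 to 39.4 ± 0.0105 FPKM (SD, n = 3), or 113% of control. Its log2 fold change was 0.18 (95% interval 0.087 to 0.265), with a limma adjusted p of 0.0692 and a voom adjusted p of 0.0392. The 3 KD values differed by a coefficient of variation of 0.0267%, below the 1.18% that counting 6668 to 7644 reads alone would give, so their spread understates the error of this level.

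BCL2L1, which encodes the guardian BCL-xL and by splicing its short opposite BCL-xS, was the third guardian by level. It (ENSG00000171552, chromosome 20, 31664452 to 31723989, minus strand) read 11.88, 11.98 and 9.93 FPKM in the controls and 11.04, 10.48 and 9.90 FPKM in PRMT1 KD. Control replicate 3 was as low as the KD libraries. The log2 fold change was -0.093 (95% interval -0.285 to 0.0999, limma adjusted p = 0.574). BCL2A1, a guardian induced by NF-κB (ENSG00000140379, chromosome 15), was near absent. It had 6, 2 and 0 reads in the controls and was listed at 0 in all 3 KD libraries, too few to test or to give a fold.

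Summed over the 4 guardians the level was 168 ± 2.00 FPKM in the controls and 171 ± 2.61 FPKM in PRMT1 KD (SD, n = 3), with overlapping values. MCL1 made up 72.5% ± 0.688 of that sum in the controls and 70.9% ± 0.766 in PRMT1 KD. BCL2 made up 20.7% ± 0.237 and 23.0% ± 0.349. The ratio of MCL1 to BCL2 FPKM was 3.44, 3.55 and 3.52 in the controls and 3.00, 3.11 and 3.16 in the KD libraries. MCL1 thus exceeded BCL2 in all 6 libraries, by less in each KD library than in any control. These ratios describe the members' own values and were given no test. Shares and ratios between genes also depend on the gene length used for FPKM, 4371 bases for MCL1 and 11765 for BCL2. By reads the 2 genes were closer, at 7707 to 8766 a library for MCL1 and 6578 to 7644 for BCL2.

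BAK1, the pore former that MCL1 and BCL-xL restrain, had the largest fitted difference of the 9 members tested. The gene (ENSG00000030110, chromosome 6, 33572547 to 33580293, minus strand) read 35.5, 39.2 and 38.1 FPKM in the controls and 31.2, 31.8 and 28.2 FPKM in PRMT1 KD. All 3 KD values lay below all 3 controls. The mean went from 37.6 ± 1.94 to 30.4 ± 1.94 FPKM (SD, n = 3), or 80.9% of control. Its log2 fold change was -0.30 (95% interval -0.446 to -0.148), with a limma adjusted p of 0.0680 and a voom adjusted p of 0.0181. Limited to the 7710 genes with a mean of at least 5 FPKM, of which 6.13% were called, BAK1 passed (limma adjusted p = 0.0358).

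Other annotated genes share sequence with BAK1. The pseudogene BAK1P1 held 3 to 27 reads and averaged 1.56 FPKM in the controls and 0.742 FPKM in PRMT1 KD. GGNBP1, on the opposite strand over BAK1 exons, held 85 to 110 reads, against 951 to 1400 for BAK1. GGNBP1 averaged 3.08 FPKM in the controls and 3.61 FPKM in PRMT1 KD. How the counting used strand is not given in the sources used here, so reads of overlapping genes on opposite strands may not have been separable. The part of either gene in the BAK1 values was not tested.

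The partner pore former BAX read 21.1, 20.7 and 19.5 FPKM in the controls and 20.5, 18.9 and 17.5 FPKM in PRMT1 KD, with overlapping groups (log2 fold change -0.11, limma adjusted p = 0.440). The ratio of BAK1 to BAX was 1.84 ± 0.145 in the controls and 1.61 ± 0.0789 in PRMT1 KD (SD, n = 3), and KD replicate 2, at 1.68, reached the lowest control, 1.68. BOK, the least typical pore former, stayed under the filter at 0.201 to 0.333 FPKM.

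BCL2L11 encodes BIM, a BH3-only protein that binds all guardians and acts on BAX and BAK1. The gene (ENSG00000153094, chromosome 2, 111119378 to 111168447, plus strand) read 7.75, 7.67 and 7.76 FPKM in the controls and 9.29, 8.81 and 9.79 FPKM in the KD libraries. The groups did not overlap. The mean went from 7.73 ± 0.0463 to 9.29 ± 0.493 FPKM (SD, n = 3), or 120% of control. Its log2 fold change was 0.24 (95% interval 0.106 to 0.368), with a limma adjusted p of 0.0847 and a voom adjusted p of 0.0329. The 3 controls differed by a coefficient of variation of 0.600%, below the 3.34% that counting error gives at the mean read number of the 6 libraries, so here too the spread understates the error. The long non-coding gene MIR4435-2HG overlaps its exons on the opposite strand with 283 to 351 reads, against 824 to 1021 for BCL2L11, and averaged 1.43 FPKM in the controls and 1.54 FPKM in PRMT1 KD.

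PMAIP1, whose product NOXA binds MCL1 and which p53 and ATF4 can induce, had the highest FPKM of the BH3-only members. It (ENSG00000141682, chromosome 18, 59899948 to 59904306, plus strand) read 13.5, 15.1 and 15.7 FPKM in the controls and 15.1, 14.5 and 18.2 FPKM in PRMT1 KD. The highest value, in KD replicate 3, stood above the rest, and the others overlapped (log2 fold change 0.099, 95% interval -0.124 to 0.322, limma adjusted p = 0.608). BBC3, whose product PUMA is the classical p53-induced killer (ENSG00000105327, chromosome 19, 47220822 to 47232766, minus strand), read 11.3, 10.8 and 9.72 FPKM in the controls and 11.8, 11.9 and 9.31 FPKM in PRMT1 KD. Its lowest value in each group came from replicate 3 (log2 fold change 0.044, 95% interval -0.196 to 0.284, limma adjusted p = 0.856).

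BID, which caspase-8 cleaves to link death receptors to mitochondria, came next to BBC3 in level. It (ENSG00000015475, chromosome 22, 17734138 to 17774770, minus strand) read 10.1, 10.2 and 9.77 FPKM in the controls and 9.67, 10.2 and 10.6 FPKM in PRMT1 KD. The groups overlapped (log2 fold change 0.018, 95% interval -0.110 to 0.146, limma adjusted p = 0.894). BMF, a BH3-only gene whose product is held at the cytoskeleton by dynein light chain (ENSG00000104081, chromosome 15, 40087890 to 40108892, minus strand), was the lowest member tested, at 2.18, 2.70 and 2.19 FPKM in the controls and 2.08, 2.27 and 2.13 FPKM in PRMT1 KD. It held 177 to 237 reads a library, and its groups overlapped (log2 fold change -0.084, 95% interval -0.308 to 0.140, limma adjusted p = 0.671).

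The 5 BH3-only genes summed to 44.8, 46.4 and 45.1 FPKM in the controls and 47.9, 47.7 and 50.1 FPKM in PRMT1 KD, with no overlap. BCL2L11 supplied 17.0% ± 0.414 of that sum in the controls and 19.1% ± 0.587 in PRMT1 KD. The ratio of BCL2 to BCL2L11 was 4.49 ± 0.0502 and 4.24 ± 0.226 (SD, n = 3), with KD replicate 2, at 4.47, inside the control range. BCL2 and BCL2L11 were thus both higher while their ratio overlapped between the groups. None of these sums was tested.

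**Figure D2:**
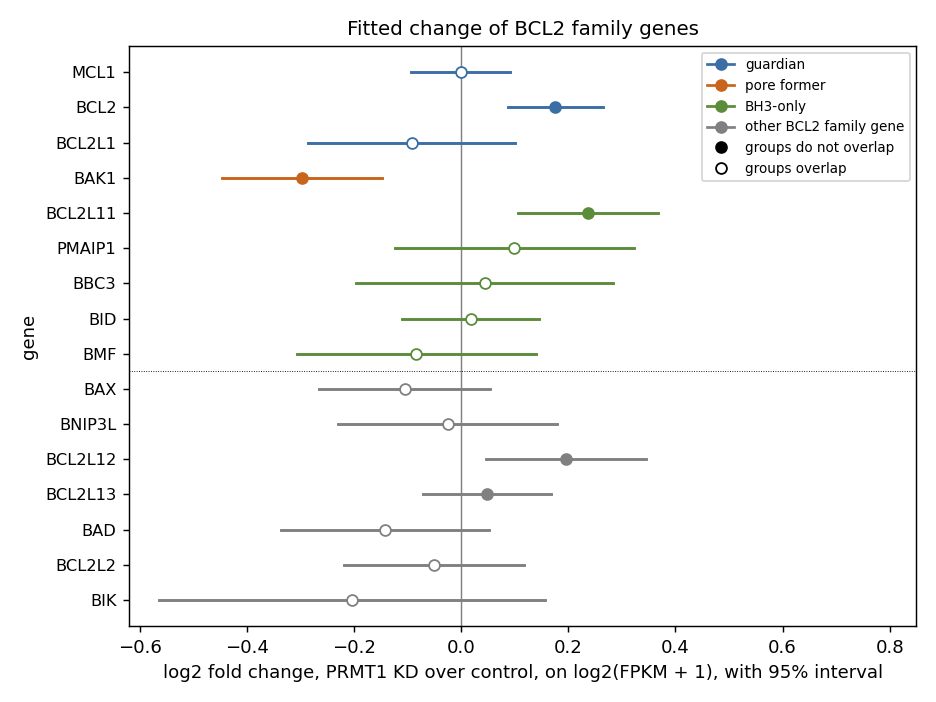
Log2 fold change of PRMT1 KD over control with its 95% interval, on log2(FPKM + 1), for the 9 members tested (above the dotted line) and the 7 other BCL2 family genes tested (below it). Filled points mark genes whose groups do not overlap. BAK1 lies lowest among the members at -0.30 and BCL2L11 highest at 0.24, while the interval of MCL1 stays within 0.1 of 0.

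By control level the members ran MCL1, BAK1, BCL2, PMAIP1, BCL2L1, BBC3, BID, BCL2L11, BMF and BCL2A1. MCL1 was 3.24-fold above BAK1, the next in order. The control ranges of BCL2L1 and BBC3 overlapped, as did those of BBC3 and BID, so those neighbours were not separated by their spread. BAK1 exceeded BCL2 in FPKM in every control, though in control replicate 1 only at 35.5 against 35.1 FPKM. BCL2 exceeded BAK1 in every KD library. FPKM divides reads by a gene length, here 2212 bases for BAK1 and 11765 for BCL2. By reads, BCL2 held 6578 to 7644 a library and BAK1 951 to 1400. The order of different genes therefore depends on these lengths, and whether they match the expressed transcripts was not tested. In PRMT1 KD the order was otherwise that of the controls except that BBC3 stood above BCL2L1, within overlapping values.

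**Figure D3:**
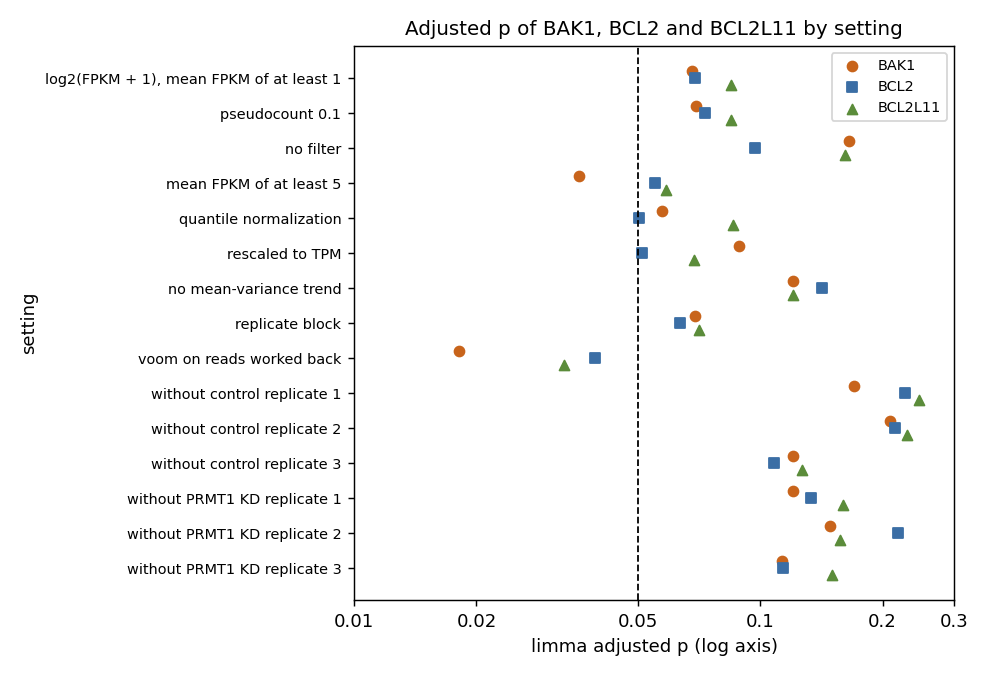
Adjusted p (log axis) of BAK1, BCL2 and BCL2L11 under the reported fit and each of 14 other settings, with the dashed line at 0.05. Voom on reads worked back places all 3 genes left of the line, and a mean FPKM of at least 5 places BAK1 there.

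The study's methods list 3 siRNAs against PRMT1, and the one used for these libraries is not named. The 19-base target sequences are shown with the site that pairs with guide bases 2 to 8 (the seed) in capitals, since such sites in 3′ UTRs can lower other mRNAs.
si-PRMT1-3: ccatcgacctgGACTTCAa
si-PRMT1-2: agacggtgttcTACATGGa
si-PRMT1-1: gcaactccatgTTTCATAa
Among 10073 tested genes with an annotated 3′ UTR the sites occurred in 18.5%, 12.7% and 24.4% of genes, in the order shown. BAK1 had the si-PRMT1-3 site in 1 of its 3 annotated 3′ UTRs and no site of the other siRNAs. BCL2 had the si-PRMT1-1 site in 2 of 3 and the si-PRMT1-2 site in 1 of 3. BCL2L11 had the si-PRMT1-1 site in 10 of 21 and the si-PRMT1-3 site in 8 of 21. MCL1 had the si-PRMT1-1 site in 2 of 3 and the si-PRMT1-2 site in 3 of 3. BMF had the si-PRMT1-1 site in 2 of 5 and PMAIP1 in 1 of 2. BCL2L1, BBC3 and BID had no site, and BCL2A1, which was not tested, was not searched. Whether seed pairing had a part in any of these levels was not tested.

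Of 13 other BCL2 family genes, 7 passed the filter and 0 the limma test, with 1 at an unadjusted p under 0.05 and 0 by voom. That gene was BCL2L12, at 10.98, 11.42 and 10.08 FPKM in the controls and 12.6, 13.1 and 11.9 FPKM in PRMT1 KD. The groups did not overlap (log2 fold change 0.20, limma adjusted p = 0.156). BCL2L12 ends 1869 bases before PRMT1 begins on chromosome 19. The BH3-only genes BAD and BIK had log2 fold changes of -0.14 and -0.20 (limma adjusted p = 0.393 and 0.506). The guardian BCL2L2 (BCL-w) was at -0.05, and BCL2L13 and the mitophagy receptor BNIP3L at 0.05 and -0.03 (limma adjusted p = 0.736, 0.641 and 0.908). The median over the 7 was -0.051. Beside the counts of this list and those below, 2.05% of all genes tested passed by limma and 6.82% by voom. At an unadjusted p under 0.05 it was 19.5%.

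Upstream of BID, the death receptor arm held the 1 called gene nearest to the members. FAS, the receptor for Fas ligand, read 2.90, 2.57 and 3.27 FPKM in the controls and 5.17, 4.88 and 5.25 FPKM in PRMT1 KD. It rose to 175% of control (log2 fold change 0.64, limma adjusted p = 0.0263), the only one of 10 genes of that arm to pass, also at an unadjusted p under 0.05 and by voom. CASP8, the protease that cleaves BID, was at 0.10 on the log2 scale (limma adjusted p = 0.598), and the median of the arm was 0.063. The FAS call held without control replicate 3 (limma adjusted p = 0.0419) but not without control replicate 1 (0.134), control replicate 2 (0.0889) or KD replicate 1 (0.0796), 2 (0.0999) or 3 (0.0726).

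Downstream, 9 of the 12 rows for 11 apoptosome and effector genes passed the filter and 0 the limma test (1 at an unadjusted p under 0.05, 0 by voom). That gene was CYCS, which encodes the cytochrome c that open mitochondria release, at 60.59, 60.59 and 64.52 FPKM in the controls and 53.48, 53.63 and 60.57 FPKM in PRMT1 KD. The highest KD value lay just under the lowest control (log2 fold change -0.15, limma adjusted p = 0.248). APAF1 and CASP9, which form the apoptosome, were at 0.0052 and -0.024 (limma adjusted p = 0.980 and 0.913). The median of the list was 0.0052. Of 7 IAP genes, several of which encode inhibitors of caspases, 5 were tested and 0 passed (0 at an unadjusted p under 0.05, 0 by voom). BIRC5 (survivin) had the smallest p, at 0.09 on the log2 scale (limma adjusted p = 0.311), and the median was 0.093.

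Of 8 partners and turnover enzymes of the family, such as VDAC2, which binds BAK1, and the MCL1 ubiquitin ligases HUWE1 and FBXW7, 0 passed the limma test and 0 voom, with 2 at an unadjusted p under 0.05. The dynein light chain DYNLL2, which holds BMF, had the smallest p, at 14.6, 14.5 and 13.9 FPKM in the controls and 12.3, 12.8 and 12.4 FPKM in PRMT1 KD (log2 fold change -0.18, limma adjusted p = 0.106). The median of the list was -0.021.

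Because PMAIP1, BBC3 and FAS are p53 targets, 14 further p53 targets were examined, of which 13 were tested. By limma 1 passed and by voom 2, against 2.05% and 6.82% of all genes tested. At an unadjusted p under 0.05 there were 4, 3 higher and 1 lower, against 19.5% of all genes tested. TP53INP1, a p53-induced gene of autophagy and cell death, rose from 54.5, 51.8 and 54.8 FPKM to 70.4, 70.3 and 73.4 FPKM (log2 fold change 0.40, limma adjusted p = 0.0154). The call held without control replicate 3 (limma adjusted p = 0.0423) but not without control replicate 1 (0.102), control replicate 2 (0.0812) or KD replicate 1 (0.0557), 2 (0.0859) or 3 (0.0519). CDKN1A and MDM2, the standard p53 readouts, were at 0.25 and 0.20 (limma adjusted p = 0.113 and 0.149, voom adjusted p = 0.0418 and 0.0515). GDF15, a p53-induced secreted factor, lay on the other side at 18.2, 17.2 and 15.4 FPKM in the controls and 14.7, 14.8 and 13.5 FPKM in PRMT1 KD, with no overlap (log2 fold change -0.22, limma adjusted p = 0.158). The median of the 13 was 0.034, and PMAIP1 and BBC3 lay at 0.099 and 0.044.

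**Figure D4:**
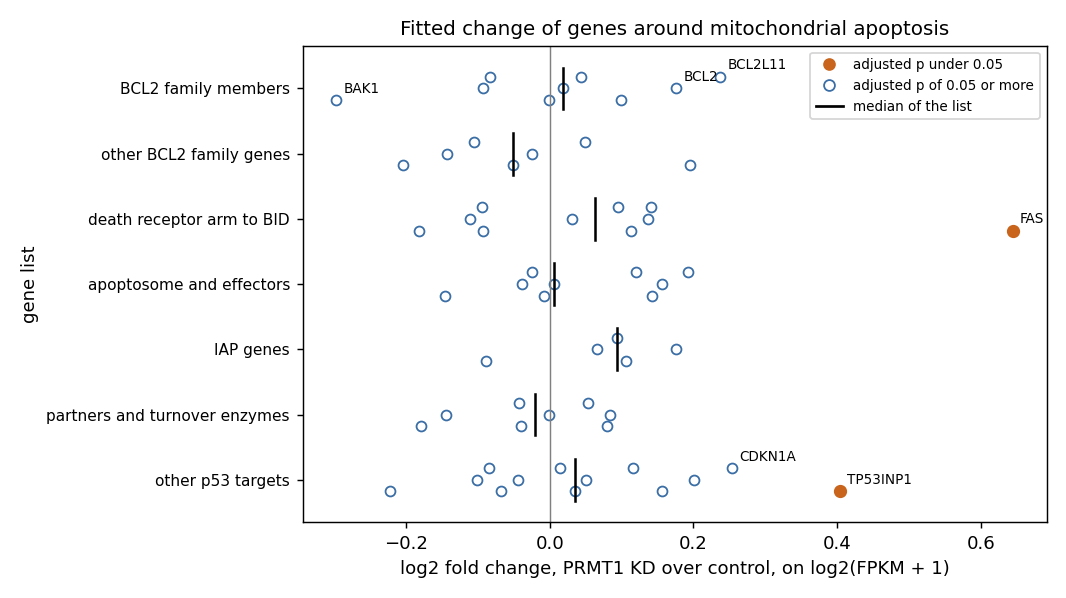
Log2 fold change of PRMT1 KD over control for each tested gene of the BCL2 family members and 6 surrounding lists, 1 point a gene, with the median of each list as a vertical line. Filled points passed an adjusted p of 0.05: FAS at 0.64 and TP53INP1 at 0.40. All medians lie between -0.051 and 0.093.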

How the data were processed

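RNA-seq of 3 control and 3 PRMT1 KD libraries of MM.1S was used. The deposited values are FPKM per gene, made by the authors with featureCounts 1.5.0-p3 on hg38 per the labels' processing notes; aligner, annotation release and strand setting are not given in the sources used here. All 58735 identifiers and coordinates matched GENCODE 29. FPKM times gene length gave whole reads for 100% of values (tolerance 1e-06 of a read). The divisor equalled a median-of-ratios library size.

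The main test was limma 3.58.1 (R 4.3.3) on log2(FPKM + 1) with a mean-variance trend, moderated statistics and Benjamini-Hochberg adjustment over the 13585 genes with a mean of at least 1 FPKM. Folds on this scale understate changes of low genes. Alternatives were limma voom on the reads worked back, a pseudocount of 0.1, no filter, a mean of at least 5 FPKM, quantile normalization, rescaling to TPM, no trend, a replicate block and leaving out each library. The fit was tested on simulated data whose changes were larger than any fitted for a member. That test therefore does not show whether changes as small as those of the members would be found. Labels do not say that libraries came from separate cultures, so p-values measure only the spread between these libraries.

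Members and gene lists were chosen with earlier results of these data known. Named genes were all members, PRMT1, tested genes of the other BCL2 family and, of each further list, the genes called or the one with the smallest p; APAF1, CASP8, CASP9, CDKN1A, GDF15, MDM2, VDAC2, HUWE1, FBXW7, BOK and the CD3 genes were named after their values were seen. 1 gene of the apoptosome list is not reported here. Isoforms and proteins were not analysed here.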

Additional observations from a re-analysis of the deposited data

How the results depend on the processing

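Under 14 other settings, BCL2 and BCL2L11 stayed positive in 14 of 14 (log2 fold change 0.17 to 0.20 and 0.20 to 0.28) and BAK1 negative in 14 of 14 (-0.34 to -0.25), with limma adjusted p from 0.0502 to 0.227, 0.0587 to 0.246 and 0.0358 to 0.208 on the FPKM values and voom adjusted p of 0.0392, 0.0329 and 0.0181. Members called numbered 0 in the reported fit, 1 with a mean of at least 5 FPKM (BAK1) and 3 with voom on reads worked back. MCL1 ranged from -0.02 to 0.02. The death receptor arm had 0 calls with no filter and at a mean of at least 5 FPKM, where FAS is not tested, and 0 to 1 leaving out 1 library. The p53 targets had 0 calls with no mean-variance trend, 2 with voom, and 0 to 1 leaving out 1 library. The other BCL2 family genes, the apoptosome list, the IAP genes and the partners kept 0 calls in every setting; the marker lists were not counted by setting. PRMT1 stayed between -2.21 and -2.09.

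Over all genes the calls went from 279 to 35 with no filter, 473 at a mean of at least 5 FPKM, 43 with no trend, 927 with voom and 13 to 95 leaving out 1 library; the cause was not tested. Rescaled to TPM, 222 of 355 calls (62.5%) were higher, against 52.0%; with no trend 34.9%, and with voom 56.7%. With a replicate block 204 genes and 0 members were called (limma adjusted p of BCL2 0.0634, BAK1 0.0689, BCL2L11 0.0706), and the lists' counts stayed as reported. Same-numbered libraries correlated at 0.020, 0.063 and 0.101 in their deviations, and differently numbered ones at -0.075 to 0.019. Each same-numbered value was the highest for its libraries, that of replicate 1 only just. As they were not all over 0.1, the numbers were not taken to pair the libraries. This bar cannot exclude a pairing, which the fit with a replicate block allows for. Depth limits BCL2A1 (at most 6 reads).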
